A study of Mus musculus with 8 samples.

Results

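The genes examined encode aminoacyl-tRNA synthetases of the cytosol and of mitochondria, together with the scaffold proteins that hold cytosolic synthetases in a complex. They were 38 of the 56077 genes and loci in the count table. Their symbols are an amino acid letter followed by ars, with or without a final 2, or Farsa, Farsb, Aimp1, Aimp2 or Eef1e1. Nars also fits this pattern but is not reported here. The choice went by symbol and gave 18 cytosolic synthetases, 17 mitochondrial synthetases, whose symbols end in 2, and 3 scaffold genes. Aimp2 also ends in 2 but encodes a scaffold protein of the cytosol and was kept with the scaffold genes. Eprs and Tarsl2 have symbols outside the pattern and were counted with the other genes of tRNA charging.

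Livers of 4 eIF2α heterozygous mice (genotype Eif2a flox/+) were compared with livers of 4 wild-type mice, all C57BL/6, 6 months old, fed and killed in the early morning. The labels name no recombinase that would delete the floxed allele, while the protocol for housing describes every animal as wild-type. Total RNA was depleted of ribosomal RNA and sequenced, and the count table names the libraries H11, H12, H15 and H75 (heterozygous) and W32, W33, W76 and W90 (wild-type). Nothing in the labels says whether the mice shared litters, so p-values measure the spread between these samples only. In RNA from whole liver, fewer cells of a type and less RNA per cell cannot be told apart.

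Each synthetase attaches an amino acid to its matching tRNAs, and the ribosome then uses the charged tRNA. Most amino acids have a separate synthetase for the cytosol and for mitochondria, both encoded in the nucleus, while Gars and Kars each supply the enzyme of both compartments. When a tRNA stays uncharged, the kinase GCN2 phosphorylates eIF2α, which slows protein synthesis in general and raises translation of the transcription factor ATF4. ATF4 is known to raise transcription of many cytosolic synthetase genes through a DNA element called the CARE (C/EBP-ATF response element).

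The libraries held 22177979 to 28564357 counts in heterozygous livers and 25626355 to 27799097 in wild-type livers. Levels are given as CPM, the counts of a gene scaled to a common library total, on library sizes scaled with TMM, a trimmed mean of log ratios between libraries. The TMM factors of H12 and H75 (0.909 and 0.900) lay below those of the other 6 libraries (1.0 to 1.06). Eif2s1, which encodes eIF2α, was at 20.5, 22.3, 20.8 and 25.1 CPM in H11, H12, H15 and H75, against 28.4, 28.8, 32.8 and 30.1 CPM in W32, W33, W76 and W90. The groups did not overlap, and heterozygous livers averaged 73.8% of the wild-type level (log2 fold change -0.44, SE 0.095; exact two-sided permutation test p = 0.0286, the smallest that 70 assignments allow; edgeR adjusted p = 0.315). Hepatocyte markers summed to 87400 to 97300 CPM in heterozygous and 75100 to 103000 CPM in wild-type livers. The summed level of each of the other 9 marker lists also overlapped between the genotypes, and the adipocyte marker Lep and the acinar markers Cpa1 and Prss1 were at 0 in every library. Of 5 markers each, 5 Kupffer, 5 biliary, 4 hepatocyte, 4 sinusoidal endothelial and 1 stellate had a higher mean in heterozygous livers. Neutrophil markers summed to 0.382 to 3.47 CPM in heterozygous and 0.303 to 0.749 CPM in wild-type livers. Overlap of sums does not show that cell composition was alike.

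All 38 genes had enough counts to be tested. Of the cytosolic synthetases, 16 of 18 had a higher mean in heterozygous livers, with a median log2 fold change of 0.11 (range -0.08 to 0.25), while 51.1% of the 14261 genes tested had a higher mean and the median of all genes was 0.005. The count was 10 of 18 with library totals in place of TMM, where 34.4% of all genes had a higher mean. It was 8 of 18, against 50.8% of all genes, with H12 and H75 left out, the libraries where the set was highest. Mitochondrial synthetases had no common direction, with 10 of 17 at a higher mean, a median of 0.005 and a range of -0.81 to 0.25. No member passed an adjusted p under 0.05 in edgeR's quasi-likelihood test, which called 0% of all genes. DESeq2 called 1.07% of all genes and, among the members, Lars2, the mitochondrial leucyl-tRNA synthetase, which was lower in heterozygous livers. limma-voom called 0 of the 38 members and 0% of all genes. At an unadjusted p under 0.05, edgeR's test had 1 lower member, Lars2, and 0 higher ones, against 4.44% of all genes lower and 4.9% higher, or 9.34% in either direction.

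The differences in the cytosolic set were small against the precision of the data. The 95% interval of the fold change lay within 1.5-fold in either direction for 17 of 18 cytosolic synthetases and for 15 of 17 mitochondrial ones, against 53.8% of all genes tested. The median SD of log2 CPM between animals was 0.154 in heterozygous and 0.112 in wild-type livers for the cytosolic set, against 0.252 and 0.19 over all genes. It was 0.154 and 0.14 for the mitochondrial set and 0.253 and 0.221 for the scaffold genes. The cytosolic set rests on 326 to 5909 counts per library and the scaffold genes on 104 to 616. No comparison with genes of like counts was made, for the intervals or for the SD.

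**Figure D1:**
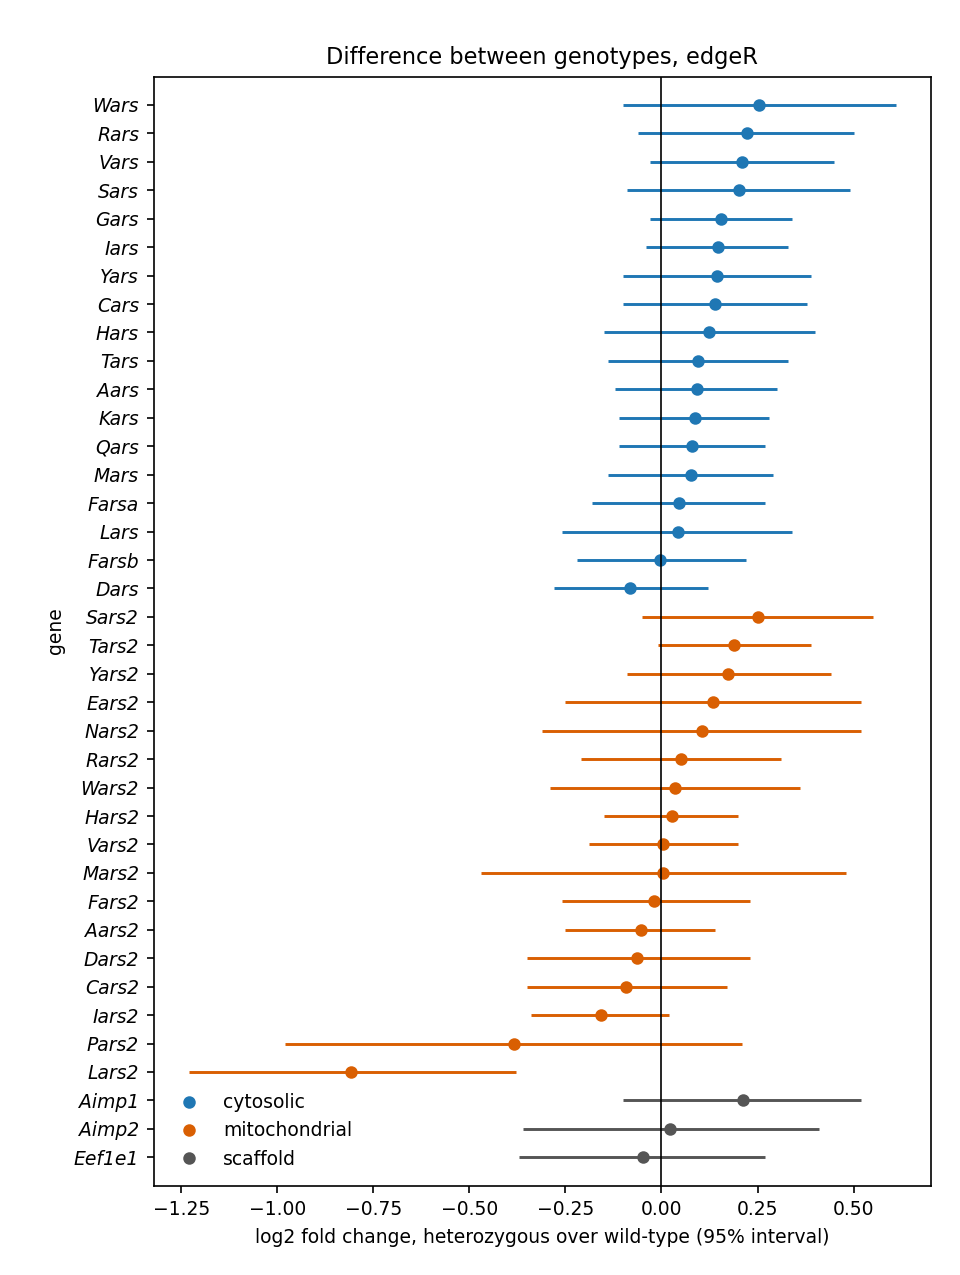
Log2 fold change of heterozygous over wild-type livers for each of the 38 genes (x axis; points are edgeR estimates, lines are 95% intervals), with cytosolic, mitochondrial and scaffold genes in separate blocks on the y axis. With TMM scaling 16 of 18 cytosolic points lie right of 0 (10 of 18 with library totals, against 34.4% of all genes). Lars2 is the member whose whole interval (-1.23 to -0.38) lies left of 0.

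Among the cytosolic synthetases, Vars, Gars, Iars, Rars, Wars and Sars had the 6 lowest p. Gars, the glycyl-tRNA synthetase, was at 33.5, 39.3, 37.1 and 33.5 CPM in H11, H12, H15 and H75, against 30.4, 32.4, 32.6 and 33.4 CPM in W32, W33, W76 and W90. It was the 1 member whose groups did not overlap, by a margin of 33.5 against 33.4 CPM, where 2.06% of all genes had all heterozygous libraries above all wild-type ones. No member had all of them below, against 2.32% of all genes. The overlap of groups was counted with TMM scaling alone. The log2 fold change of Gars was 0.15 with TMM scaling (SE 0.083, edgeR adjusted p = 0.606) and 0.07 with library totals. Gars lies on the plus strand of chromosome 6, chr6:55038007-55079500 of GRCm38.

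Vars, the valyl-tRNA synthetase, was at 24.3, 30.9, 28.1 and 29.8 CPM in heterozygous libraries, against 25.5, 22.3, 22.9 and 27.2 CPM in wild-type libraries. All heterozygous values but that of H11 lay above the wild-type range (log2 fold change 0.21, SE 0.11, edgeR adjusted p = 0.580). Iars, the isoleucyl-tRNA synthetase, was at 41.6, 45.8, 39.8 and 40.7 CPM, against 37.8, 35.9, 41.0 and 37.1 CPM in wild-type libraries. Only W76 reached into the heterozygous range (log2 fold change 0.15, SE 0.082, edgeR adjusted p = 0.619).

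Rars, Wars and Sars showed a wider spread among heterozygous animals. Rars, the arginyl-tRNA synthetase, was at 23.7, 31.7, 23.0 and 30.9 CPM in H11, H12, H15 and H75, against 21.0 to 25.2 CPM in wild-type livers. Wars, the tryptophanyl-tRNA synthetase, was at 16.5, 22.3, 13.8 and 19.9 CPM, against 13.4 to 17.8 CPM in wild-type livers. Sars, the seryl-tRNA synthetase, was at 37.8, 55.9, 42.3 and 48.7 CPM, against 36.8 to 46.5 CPM. In each of these genes H12 and H75 stood above every wild-type library, and H11 and H15 lay within the wild-type range. Their log2 fold changes of 0.22, 0.25 and 0.20 did not pass (edgeR adjusted p = 0.625, 0.658 and 0.664).

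That pattern ran through much of the cytosolic set. In H12 14 of 18 cytosolic synthetases and in H75 13 of 18 lay above all 4 wild-type libraries, against 2 in H11 and 3 in H15. The corresponding shares of all genes were 28.6%, 29.1%, 20.8% and 20.5%. No cytosolic synthetase lay below all wild-type libraries in H12 or H75, against 5 in H11 and 3 in H15, where the shares of all genes below were 29.7% in H12, 28.7% in H75, 21.2% in H11 and 20.1% in H15. The median log2 difference of the set from the wild-type mean was -0.036, 0.275, 0.027 and 0.170 in H11, H12, H15 and H75, against -0.087 to 0.092 in wild-type libraries.

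The values of the set depended on those libraries, and the count of higher means moved with the scaling. With H12 and H75 left out, 8 of 18 cytosolic synthetases had a higher mean and their median log2 fold change was -0.002. H12 and H75 were the libraries where the set was highest. Leaving them out was therefore bound to lower its median and is no test of the set. With library totals as the scaling, the median log2 fold change was 0.016 for the set and -0.079 for all genes. There 10 of 18 had a higher mean, against 34.4% of all genes. Under that scaling the median of the set in H11, H12, H15 and H75 was -0.055, 0.096, 0.069 and -0.024. The median of all genes in these libraries was -0.015, -0.166, 0.046 and -0.177. The part of the low TMM factors of H12 and H75 in the result was not tested.

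**Figure D2:**
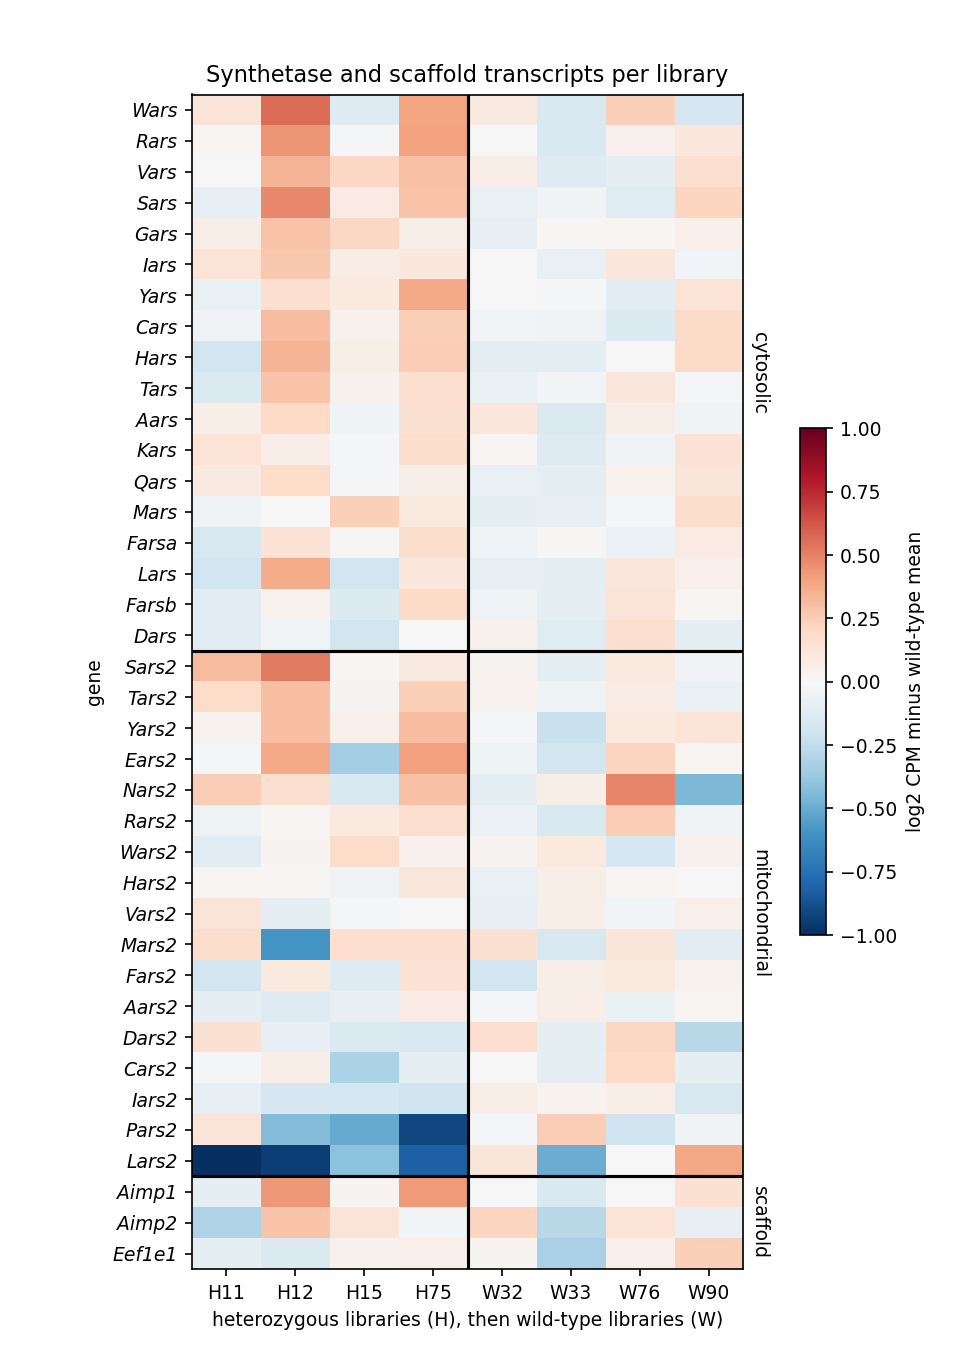
Log2 CPM of each gene minus its wild-type mean (colour, from -1 in blue to 1 in red; darker ends also hold values beyond the scale) in each library, with heterozygous libraries to the left of the vertical line and genes ordered by fold change within cytosolic, mitochondrial and scaffold blocks. Red cells gather in the H12 and H75 columns of the cytosolic block, and the Lars2 row is blue in all 4 heterozygous libraries.

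**Figure D3:**
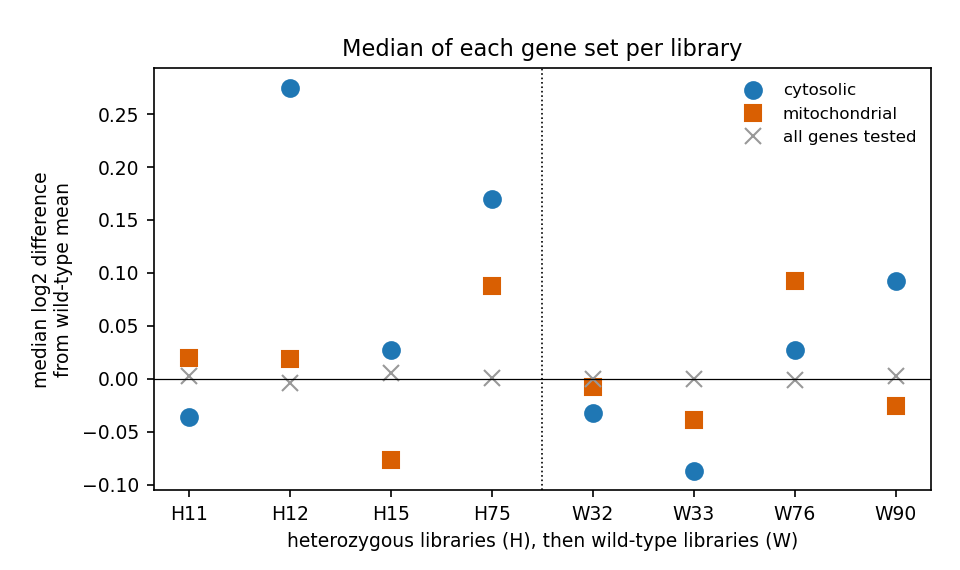
Median log2 difference from the wild-type mean (y axis) of the cytosolic synthetases, the mitochondrial synthetases and all 14261 genes tested in each library (x axis, heterozygous libraries first). The cytosolic median is highest in H12 (0.275) and H75 (0.170), the mitochondrial median stays between -0.077 and 0.092, and the median of all genes stays near 0.

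Asns and Ddit3, which have textbook ties to the same signalling, were picked after their values were seen. Asns, asparagine synthetase and an ATF4 target that makes the amino acid itself rather than charging a tRNA, was at 10.1, 13.9, 4.25 and 32.1 CPM in H11, H12, H15 and H75, against 0.715 to 1.72 CPM in wild-type livers. Ddit3, which encodes the transcription factor CHOP, was at 4.10, 28.9, 5.27 and 16 CPM, against 6.25 to 10.9 CPM in wild-type livers. Asns was thus above the wild-type range in every heterozygous liver. Ddit3 was above it in H12 and H75 and below it in H11 and H15. Neither passed edgeR's test (adjusted p = 0.196 and 0.697). DESeq2 called Asns (adjusted p = 2.04e-05) and not Ddit3 (adjusted p = 0.776). Whether these genes and the synthetases are linked was not tested.

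Among the members, 10 cytosolic synthetases have been reported as ATF4 targets (Aars, Cars, Gars, Iars, Lars, Mars, Sars, Tars, Wars and Yars). All had a higher mean with TMM scaling, with a median log2 fold change of 0.14. The count was 7 of 10 with library totals, where 34.4% of all genes had a higher mean. It was 9 without H12 and 5 with H12 and H75 left out, the libraries where the cytosolic set was highest. Of the 8 other cytosolic synthetases 6 had a higher mean, with a median of 0.08, and 3 had with library totals or with H12 and H75 left out. None of either group passed edgeR's test, and the difference between the groups was not tested. Grouped by the fold of the catalytic domain, all 9 cytosolic synthetases of class I and 7 of 9 of class II had a higher mean, with medians of 0.14 and 0.09, against 6 and 4 with library totals and 5 and 3 with H12 and H75 left out. The highest log2 fold changes of the ATF4-reported group were those of Wars and Sars, and the lowest was that of Lars, the leucyl-tRNA synthetase (0.04).

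The promoters of the members were searched for the CARE because it is the element through which ATF4 acts. RefSeq promoters on GRCm38.p6, each 250 bases before to 50 bases after an annotated start site, matched 29 of the 38 members, 12 of 18 cytosolic, 14 of 17 mitochondrial and 3 of 3 scaffold genes. The letters TGATGNAAN, on either strand, were present in 5 of 12 cytosolic promoters (41.7%), 0 of 14 mitochondrial and 0 of 3 scaffold ones, against 4.5% of 27025 genes. The narrower TGATGCAA, every match of which is also a match of TGATGNAAN, was present in 4 of 12 cytosolic promoters (33.3%), against 1.03% of all genes. The genes are Aars, Gars, Iars, Tars and Yars, the alanyl-, glycyl-, isoleucyl-, threonyl- and tyrosyl-tRNA synthetases. A match of letters is not evidence of binding.

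The stretches around the matches are shown because all members with a match in these windows were cytosolic. The other 7 matched cytosolic promoters held none. Each runs 5′ to 3′ on the strand of its gene with the match in capitals. In Yars the capitals read TGATGCAAC as written, and in the other genes they are the reverse complement of the motif. Positions are those of the first capital letter, counted from the annotated start site as 1 with negative numbers before it.
Aars, position -113, plus strand, chr8:111033689-111033777: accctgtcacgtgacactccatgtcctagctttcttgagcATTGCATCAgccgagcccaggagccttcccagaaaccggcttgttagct
Aars, position 9, plus strand, chr8:111033810-111033871: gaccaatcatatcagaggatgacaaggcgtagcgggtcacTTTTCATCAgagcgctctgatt
Gars, position -31, plus strand, chr6:55037930-55038018: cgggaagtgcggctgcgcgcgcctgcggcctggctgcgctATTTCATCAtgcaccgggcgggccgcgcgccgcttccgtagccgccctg
Iars, position 7, plus strand, chr13:49682096-49682159: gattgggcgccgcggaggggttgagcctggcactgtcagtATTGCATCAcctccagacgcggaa
Tars, position -16, minus strand, chr15:11399629-11399714: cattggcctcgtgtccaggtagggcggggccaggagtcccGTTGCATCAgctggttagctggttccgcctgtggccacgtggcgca
Yars, position 4, plus strand, chr4:129189866-129189932: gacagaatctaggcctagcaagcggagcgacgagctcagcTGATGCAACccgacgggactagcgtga

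Of the 5 genes with a match, Gars and Iars had log2 fold changes of 0.15 each, Yars of 0.14, Tars of 0.10 and Aars of 0.09, and Aars was at -0.0005 with library totals. The E-box CACGTG, bound by factors such as MYC and USF, was present in 4 of 12 cytosolic and 1 of 14 mitochondrial promoters, against 8.09% of all genes.

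The 3 scaffold genes encode the proteins that hold several synthetases in the multisynthetase complex. Aimp1 was at 16.4, 23.7, 17.9 and 23.5 CPM in H11, H12, H15 and H75, against 17.5, 15.8, 17.6 and 19.6 CPM in W32, W33, W76 and W90 (log2 fold change 0.21, SE 0.14, edgeR adjusted p = 0.664). H12 and H75 again lay above the wild-type range. Aimp2 was at 4.30, 6.47, 5.82 and 5.20 CPM, against 6.16, 4.40, 5.86 and 5.03 CPM, and Eef1e1 at 6.18, 5.93, 6.75 and 6.80 CPM, against 6.71, 5.25, 6.82 and 7.75 CPM. Aimp2 lay above the wild-type range in H12 and below it in H11, and Eef1e1 lay within the wild-type range in all 4 heterozygous libraries. Their log2 fold changes were 0.02 (SE 0.17) and -0.05 (SE 0.14). With library totals as the scaling Aimp2 was at -0.07. Of the 10 members of the complex among the genes examined, 8 had a higher mean, with a median log2 fold change of 0.08. The count was 3 with library totals, against 34.4% of all genes, and 4 with H12 and H75 left out.

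Lars2, which charges the leucine tRNAs of mitochondria, had the largest difference among the 38 genes. It was at 44.2, 46.3, 66.8 and 50.6 CPM in H11, H12, H15 and H75, against 96.7, 63.0, 88.5 and 116 CPM in W32, W33, W76 and W90. Only H15 reached above W33, the lowest wild-type library, so the groups overlapped by that pair. The mean was 52.0 ± 10.2 CPM in heterozygous livers and 91.0 ± 21.9 CPM in wild-type livers (SD, n = 4 each), so that heterozygous livers averaged 57.1% of the wild-type level. The log2 fold change was -0.81 (SE 0.19, 95% interval -1.23 to -0.38), with an unadjusted p of 0.00173 and an adjusted p of 0.352 in edgeR's quasi-likelihood test. DESeq2 gave an adjusted p of 0.0123 and called 0.428% of all genes lower. Without H15, Lars2 was called by edgeR with an adjusted p of 0.0360 at a log2 fold change of -0.95, where 1.74% of all genes were called and 0.889% were called lower. In the authors' deposited table Lars2 had a log2 fold change of -0.81 and an adjusted p of 0.0123. It was not marked significant, as was true of all 38 members. Among all genes there, 139 had an adjusted p under 0.05 and 74 were marked, so the mark did not rest on that threshold alone.

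Lars2 lies on the plus strand of chromosome 9, chr9:123366927-123462666 of GRCm38, and its values rest on 1012 to 3066 counts per library. Its transcript of 3894 bases has a stretch after the stop codon, whose last base is base 2908, that resembles transcripts of 2 other loci. Bases 3278 to 3349 matched Gm15564 over 72 bases at 98.6% identity, and bases 3233 to 3329 matched AA474408 over 97 bases at 94.8%. Those loci carried 0 to 1 and 10 to 24 counts per library. AY036118, a transcript annotated over a copy of the ribosomal RNA genes, was at 0, 9.90, 0 and 29.9 CPM in H11, H12, H15 and H75, against 29.6, 0, 44.5 and 181 CPM in W32, W33, W76 and W90. Among wild-type libraries it was highest in W90 and at 0 in W33, the libraries with the highest and the lowest Lars2, but W76 exceeded W32 in AY036118 and not in Lars2. Among heterozygous libraries, H15 had the highest Lars2 with AY036118 at 0. Gm26917 and Gm42418, also annotated over ribosomal RNA gene copies, had log2 fold changes of 0.31 and 0.10 (edgeR adjusted p = 0.737 and 0.918). The part of residual ribosomal RNA in the Lars2 counts was not tested.

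**Figure D4:**
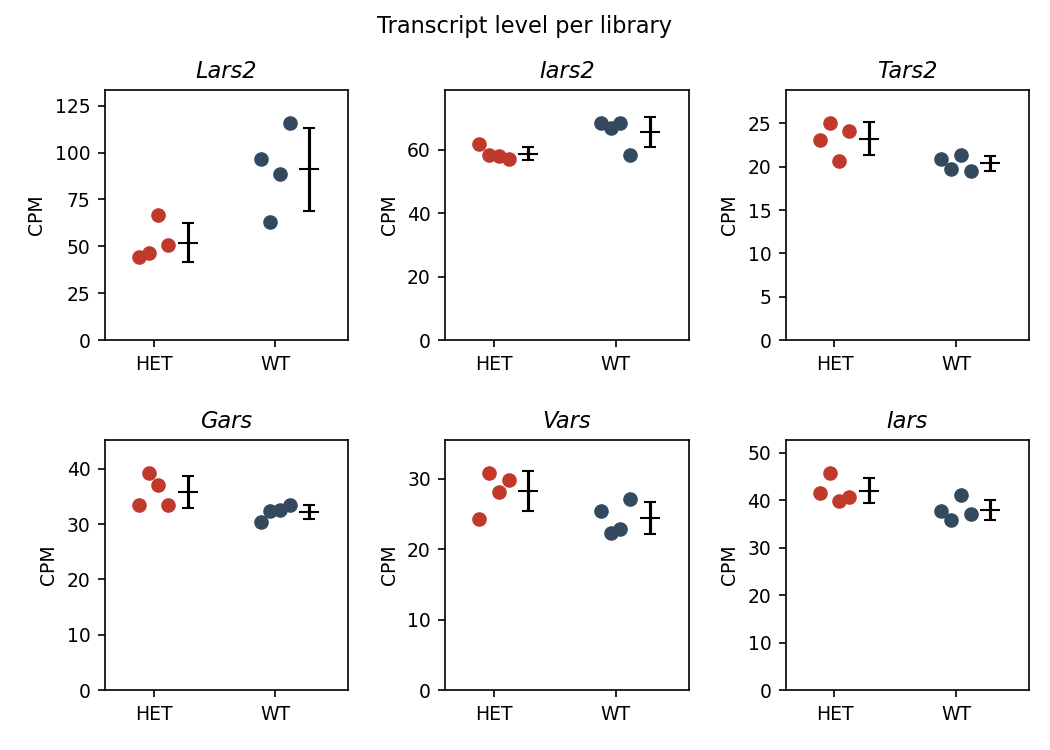
CPM (y axis, from 0) of Lars2, Iars2, Tars2, Gars, Vars and Iars in heterozygous (HET) and wild-type (WT) livers; each point is a library and the bar beside it shows mean ± SD (n = 4 each). Lars2 averages 52.0 CPM in heterozygous and 91.0 CPM in wild-type livers, and the points of the genotypes overlap in every gene shown but Gars.

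Of the other mitochondrial synthetases, Tars2, Iars2, Sars2, Yars2 and Pars2 had the lowest p. Tars2, for threonine, was at 23.1, 25.1, 20.7 and 24.1 CPM in heterozygous libraries, against 20.9, 19.8, 21.4 and 19.5 CPM in wild-type libraries, with all but H15 above the wild-type range (log2 fold change 0.19, SE 0.089, edgeR adjusted p = 0.554). Iars2, for isoleucine, was at 61.8, 58.2, 57.9 and 57.0 CPM, against 68.5, 66.8, 68.3 and 58.4 CPM, with all but H11 below the wild-type range (log2 fold change -0.16, SE 0.082, edgeR adjusted p = 0.590). Iars2 shares 2034 exon bases with Rab3gap2 on the other strand, and the strand setting of the counting program, not given in the sources used here, decides how such reads are assigned.

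Sars2, for serine, was at 9.04, 10.4, 7.35 and 7.75 CPM in H11, H12, H15 and H75, against 6.83 to 7.79 CPM in wild-type livers, with H11 and H12 above the wild-type range. Yars2, for tyrosine, was at 12.6, 15.2, 12.7 and 15.3 CPM, against 10.5 to 13.5 CPM. Their log2 fold changes were 0.25 and 0.17 (edgeR adjusted p = 0.611 and 0.679). Pars2, for proline, was at 1.65, 1.12, 1.06 and 0.800 CPM, against 1.31 to 1.79 CPM, on 16 to 50 counts per library (log2 fold change -0.38, SE 0.26, edgeR adjusted p = 0.683). All but H11 lay below the wild-type range.

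Mitochondrial synthetases as a set did not follow the H12 and H75 pattern of the cytosolic ones. The number above all wild-type libraries was 4, 4, 2 and 7 of 17 in H11, H12, H15 and H75, and the number below all of them was 3, 6, 5 and 3. As shares, 23.5%, 23.5%, 11.8% and 41.2% lay above and 17.6%, 35.3%, 29.4% and 17.6% below, on either side of the shares of all genes given for these libraries. Their median log2 difference from the wild-type mean was 0.020, 0.019, -0.077 and 0.088 in these libraries, against -0.039 to 0.092 in wild-type libraries. The 9 of class I had a median log2 fold change of 0.005 with 6 at a higher mean, and the 8 of class II a median of 0.004 with 4 at a higher mean.

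Levels per kilobase of gene length differed more between the genes than between the genotypes. The cytosolic set had a median of 13.9 CPM per kilobase in heterozygous and 13.1 in wild-type livers, and the mitochondrial set of 5.42 and 4.94. Tars, for threonine, was the highest cytosolic member at 50 CPM per kilobase in heterozygous and 46.8 in wild-type livers, followed by Aars, for alanine, at 32 and 30.0. Lars and Vars were the lowest cytosolic members, at 5.26 and 6.99 CPM per kilobase in heterozygous and 5.11 and 6.04 in wild-type livers. The ranges over libraries of Tars (42.3 to 56.8 in heterozygous and 44.7 to 50.5 in wild-type livers) and Aars (29 to 34.4 and 27.1 to 32.3) did not meet.

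Lars2 was the highest mitochondrial member, at 13.4 CPM per kilobase in heterozygous and 23.4 in wild-type livers. Iars2 followed at 10.7 and 12.0. In wild-type livers Lars2 (16.2 to 29.8) lay above Iars2 (10.7 to 12.5) in every library, and in heterozygous livers the lowest Lars2 value was 11.4, against a highest Iars2 value of 11.3. Mars2, for methionine, and Pars2 were the lowest, at 0.260 and 0.380 CPM per kilobase in heterozygous and 0.259 and 0.498 in wild-type livers. The place of Mars2 rests on its listed length of 11294 bases, against 3046 bases for Pars2. In CPM Mars2 (2.94 in heterozygous and 2.92 in wild-type livers) lay above Pars2 (1.16 and 1.52).

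For 14 amino acids a cytosolic and a mitochondrial gene were both among the members, which gave 15 pairs because Farsa and Farsb encode the subunits of the cytosolic phenylalanine enzyme. In wild-type livers the cytosolic level per kilobase was higher in 13 of the 15 pairs, with a median ratio of 2.05. Isoleucine and leucine were the exceptions, with ratios of cytosolic to mitochondrial level of 0.893 in heterozygous and 0.719 in wild-type livers for Iars over Iars2, and of 0.393 and 0.218 for Lars over Lars2. The Iars to Iars2 ratio of each of the 4 heterozygous libraries lay above those of all wild-type libraries, and the Lars to Lars2 ratio did so in 3 of 4. Of the 15 pairs, 1 had all 4 heterozygous ratios above the wild-type ones, 2 had 3, 3 had 2, 3 had 1 and 6 had 0. Ratios below all wild-type ones were not counted, and no share over other gene pairs was taken.

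The log2 fold change of the cytosolic gene was higher than that of its mitochondrial partner in 11 of 15 pairs. Neither this count nor the next was made again without H12 and H75, the libraries where the cytosolic set was highest. In 5 pairs the signs were opposite, with the cytosolic gene at a higher and the mitochondrial gene at a lower mean in each. These were Lars and Lars2 (0.04 and -0.81), Iars and Iars2 (0.15 and -0.16), Cars and Cars2 for cysteine (0.14 and -0.09), Aars and Aars2 (0.09 and -0.05) and Farsa and Fars2 for phenylalanine (0.05 and -0.02). None of these genes passed edgeR's test. Lars was at 17.8, 26.3, 17.8 and 21.9 CPM in H11, H12, H15 and H75, against 19.2, 19.0, 22 and 21.1 CPM in wild-type libraries, so its higher mean came from H12, and without H12 its log2 fold change was -0.09. With library totals as the scaling Lars, Farsa and Aars had values of -0.06, -0.05 and -0.0005.

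**Figure D5:**
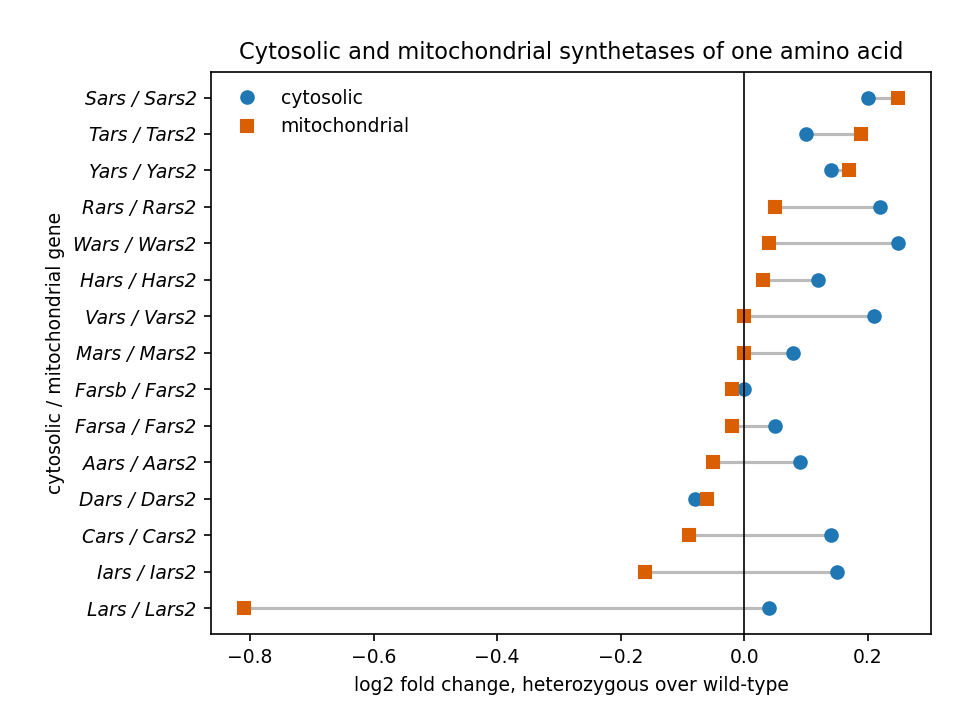
Log2 fold change of heterozygous over wild-type livers (x axis) of the cytosolic gene (circle) and the mitochondrial gene (square) of the same amino acid, with pairs ordered by the mitochondrial value. The circle lies right of the square in 11 of 15 pairs, with the widest gap at Lars and Lars2. The count was not made again without H12 and H75.

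Other genes of tRNA charging and supply had no common direction. Of 41 tested, 22 had a higher and 19 a lower mean, with a median log2 fold change of 0.02, 0 passed edgeR's test or DESeq2, and at an unadjusted p under 0.05 there were 2 higher and 1 lower. Xpot, exportin-t, which carries tRNAs out of the nucleus, was at 60.3, 55.1, 71.6 and 58.4 CPM in H11, H12, H15 and H75, against 79.6, 66.1, 78.7 and 73.0 CPM in W32, W33, W76 and W90. All but H15 lay below the wild-type range (log2 fold change -0.28, SE 0.10, edgeR adjusted p = 0.479). All 6 genes listed for the delivery of charged tRNA, exchange factors included, had a higher mean, against 51.1% of all genes. Their median was 0.21, with a range of 0.02 (Eef1a1) to 0.33 (Eef1d), and 0 passed edgeR's test. The count was 5 of 6 with library totals (34.4% of all genes) and with H12 and H75 left out (50.8%). Eef1g and Eef1b2, subunits of the exchange factor for elongation factor 1, averaged 151 ± 14.8 and 135 ± 18.4 CPM in heterozygous livers and 126 ± 13.5 and 112 ± 12.9 CPM in wild-type livers (SD, n = 4 each; edgeR adjusted p = 0.503 and 0.544). Pop5, a subunit of RNase P, which trims tRNA precursors, was at 20.8, 30.0, 20.9 and 30.9 CPM in H11, H12, H15 and H75, against 17.1 to 23.1 CPM in wild-type livers (edgeR adjusted p = 0.507). In H12 and H75 Eef1g was at 164 and 163 CPM, against at most 144 CPM in wild-type livers, and Eef1b2 at 145 and 156 CPM, against at most 129 CPM. These libraries thus stood above the wild-type range in genes outside the synthetases as well. Of the 41 genes, 2, 17, 5 and 19 lay above all wild-type libraries in H11, H12, H15 and H75. The corresponding shares of all genes were 20.8%, 28.6%, 20.5% and 29.1%. The number of the 41 below all wild-type libraries was not counted.

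The synthetases outside the symbol pattern also overlapped between the genotypes. Eprs, the fused glutamyl- and prolyl-tRNA synthetase, was at 101, 119, 82.1 and 108 CPM in heterozygous libraries, against 96.1, 91.4, 107 and 94.7 CPM in wild-type libraries (log2 fold change 0.08, SE 0.12). Tarsl2 had a log2 fold change of -0.05 (SE 0.10). Eif2ak4, which encodes the kinase GCN2, was at 6.14, 6.01, 10.2 and 6.15 CPM, against 8.99 to 9.33 CPM, with all but H15 below the wild-type range (log2 fold change -0.36, SE 0.18, edgeR adjusted p = 0.578). Eprs, Tarsl2 and Eif2ak4 were picked for these sentences after their values were seen.

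In the annotation of the authors' deposited table, all 18 cytosolic and all 17 mitochondrial synthetases carried a tRNA ligase term. A mitochondrion term was attached to 16 of 17 mitochondrial members, all but Cars2, and to 7 of 18 cytosolic members, among them Gars and Kars. Exons of Aars overlap those of Exosc6 by 1326 bases on the same strand, so reads there cannot be told apart even where strand is used. Reads of other members cannot be told apart from those of a neighbour if strand was not used, since exons overlap between Iars2 and Rab3gap2 as above, between Fars2 and Nrn1 by 501 bases, between Hars and Hars2 by 195 bases, between Mars and Ddit3 by 68 bases and between Aimp2 and Eif2ak1 by 487 bases. Mars was highest in H15 (55.9 CPM) and Ddit3 in H12 (28.9 CPM).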

How the data were processed

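Frozen livers gave Trizol-extracted RNA that was treated with DNaseI and cleared of ribosomal RNA with a Ribo-Zero kit, per the labels' protocols. The build was mm10 (GRCm38), and the tools named, without roles, are SAMtools 1.9, GATK 3.8, Bowtie2 2.2.9 and fastp 0.19.5, per the submitters' processing notes. What counted the reads, with which annotation and strand setting, was not given in the sources used here. A deposited count table gives unnormalized estimated counts for each gene, of which 90% are whole, and the rest carry fractions. It includes 541 unannotated loci, which were kept. The authors' deposited table of comparisons gives the fold (a ratio), its log2, the p-value and the adjusted p-value, and the gene length in bases, per the file headers.

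Estimated counts were rounded, filtered with filterByExpr (14261 genes left), scaled with TMM and tested with the quasi-likelihood test of edgeR (4.0.16, under R 4.3.3) in a model of group alone, with Benjamini-Hochberg adjustment over all genes tested. Calls have an adjusted p under 0.05. An SE was taken as the absolute log2 fold change over the square root of F. Columns were assigned to groups by their first letter and carry no replicate number. Alternatives were DESeq2 1.42.0, limma-voom (limma 3.58.1), other scalings and filters, and leaving out libraries. The count of members with a higher mean under each of these, the fit without H12 and H75 and the set medians on library totals were added after seeing the data. Medians per library use log2 CPM with 0.5 added. Library pairs of a group differed by a chi-square per gene of 20.2 to 163, so none was a duplicate. The fits were tested on simulated data. Lars2 was compared with other GENCODE transcripts with blastn 2.17.0, and motifs were searched in RefSeq promoters.

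Named are, in each synthetase set, the 6 of lowest p, members whose groups do not overlap, the 2 highest and 2 lowest per kilobase in wild-type livers and pairs of opposite sign, besides the scaffold genes, 4 pathway genes of lowest p and Eif2s1. Other genes were named after their values were seen. The members and lists were chosen with earlier results of these data known.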

Additional observations from a re-analysis of the deposited data

Results flagged for a closer look

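Within groups of 4 libraries, 2 of 82 groups examined had a library that stood far from the other 3, by the size of its gap to the nearest of them within the group's range (Dixon's test), which chance gives in about 1 of 20 groups. Mars2, the mitochondrial methionyl-tRNA synthetase, was at 1.93 CPM in the heterozygous library H12, against 3.25 to 3.29 CPM in the other heterozygous libraries. Iars2 was at 58.4 CPM in the wild-type library W90, against 66.8 to 68.5 CPM in the other wild-type libraries.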

How the results depend on the processing

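No paired analysis was possible because the columns of the count table carry no replicate number. No cytosolic synthetase was called under any alternative. Genes called over the whole table numbered 0, against 152 with DESeq2, 18 with no filter on low counts, and 1 each with the newer quasi-likelihood method, with robust estimation and at an adjusted p under 0.1. Leaving out 1 library gave 0 to 252 calls, with 252 without H15 and 2 without W32. Mitochondrial synthetases called numbered 1 (Lars2) with DESeq2, and 0 to 1 with 1 library left out, the call coming without H15. The adjusted p of Lars2 ran from 0.0123 to 0.677 over 17 alternatives, and its log2 fold change from -0.95 to -0.67. Eif2s1 passed with DESeq2 (log2 fold change -0.44, adjusted p = 0.0156; range 0.0156 to 0.633).

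The cytosolic median log2 fold change kept its sign under the other scalings, filters and tests and with any 1 library left out (0.016 to 0.16) and was -0.002 without H12 and H75, where 8 of 18 had a higher mean. With library totals 10 cytosolic and 5 mitochondrial members had a higher mean, and the mitochondrial median was -0.072. With that scaling the median of all genes was -0.079, and 34.4% of them had a higher mean. Of 29 named genes, 22 never changed sign over 17 alternatives. For single genes these did not include the fit without H12 and H75. With library totals the sign turned for Lars (-0.0558), Aars (-0.0005), Mars2 (-0.0721), Aimp2 (-0.0665) and Farsa (-0.0469), and for Mars2 with upper quartile scaling (-0.0061) and limma-voom (-0.0351). With 1 library left out, log2 fold changes ran from -0.087 to 0.114 for Lars, -0.0575 to 0.163 for Mars2, -0.0712 to 0.123 for Aimp2, -0.142 to 0.0335 for Eef1e1 and -0.078 to 0.0371 for Fars2. The cause was not tested. Pars2 and Mars2, on 16 to 50 and 50 to 95 counts per library, have the least precise values.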
